A study of Sus scrofa with 8 samples.

Results

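Smooth muscle contractile genes were examined in scraped oviduct cells of 4 sows. Of the 10 genes chosen, 9 had at least 1 probe set on the Affymetrix Porcine array under their own symbol, among 6765 gene symbols in its annotation. These 9 genes had 17 of the 24123 probe sets: ACTA2, MYL9, TAGLN and CNN1 with 1 each, ACTG2, DES and CALD1 with 2 each, TPM1 with 3 and TPM2 with 4. No probe set carried the symbol of the tenth gene, MYH11, which encodes the heavy chain of smooth muscle myosin, and it was not analysed here. The genes were picked by symbol, but with earlier results of these same arrays known, so their levels and their co-variation over arrays are given as a description, without a test. Each sow, a weaned Landrace × Large White crossbred before ovulation, received flow-sorted Y-spermatozoa in one oviduct and flow-sorted X-spermatozoa in the other, both pooled from the same boars. Cells were taken from both oviducts after 24 h, which gave 4 Y-spermatozoa arrays (Y1 to Y4) and 4 X-spermatozoa arrays (X1 to X4), the number naming the sow. None of the 8 samples was an oviduct without spermatozoa, and both uterine horns of each sow had been closed with staples.

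The wall of the oviduct carries smooth muscle beneath its folded mucosa, and the contractions of this muscle help to move gametes and the early embryo. In smooth muscle cells, actin filaments slide along myosin filaments once the regulatory light chain of myosin is phosphorylated, while tropomyosin, calponin and caldesmon lie along the actin and restrain the contact. The same proteins serve as markers of smooth muscle, and the filament protein desmin ties the contractile units together. Scraping the opened oviduct with a glass slide was meant to collect the epithelial lining.

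Contractile transcripts were present on every array and differed several-fold between oviducts, in an order that did not follow the type of spermatozoa. Arrays Y2, Y4, X2 and X3 were high and arrays Y1, Y3, X1 and X4 were low, so that both oviducts of sow 2 were high, both oviducts of sow 1 were low, and sows 3 and 4 had 1 of each. The 4 highest arrays were these 4 for 8 of the 9 genes, taking the brightest probe set of each gene. Among all probe sets 3.17% had the same 4 arrays on top. For Y-spermatozoa against X-spermatozoa 0 of the 17 reached an unadjusted limma p under 0.05, which 3.56% of the 23999 probe sets tested did reach, 1.94% lower and 1.62% higher with Y-spermatozoa.

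**Figure D1:**
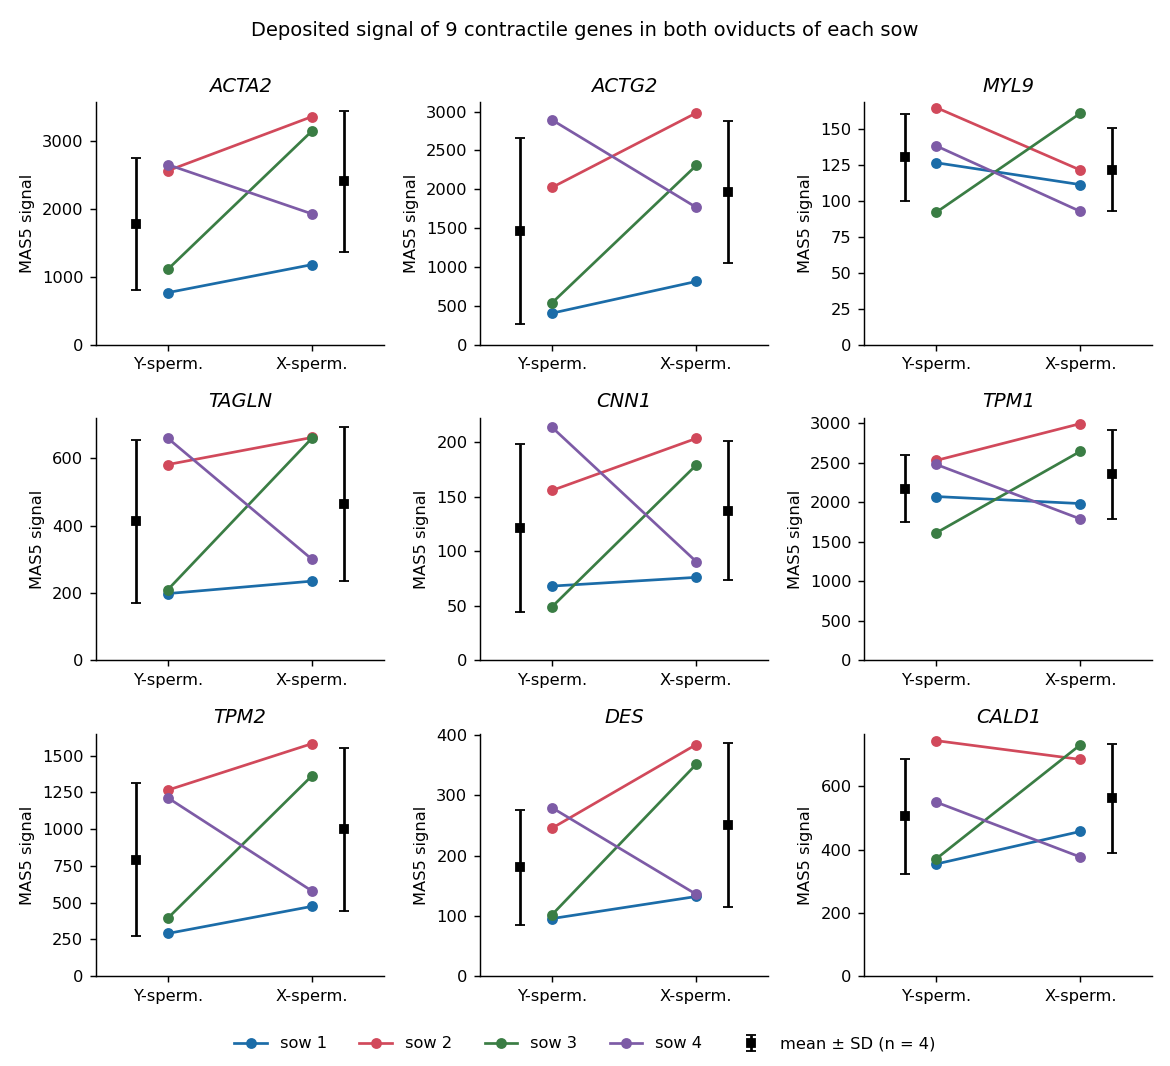
Deposited signal (MAS5 units, linear vertical axis from 0) of the brightest probe set of 9 contractile genes, with Y-spermatozoa oviducts on the left and X-spermatozoa oviducts on the right. Coloured lines join the oviducts of a sow, and black squares with bars are the mean ± SD (n = 4); for ACTA2, ACTG2, TAGLN, CNN1, TPM2 and DES the line of sow 4 runs against the lines of the other sows.

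ACTA2, the alpha actin of vascular and visceral smooth muscle, had signals of 766.5, 2562.3, 1111.4 and 2651.0 on arrays Y1 to Y4, and of 1178.8, 3359.0, 3148.3 and 1925.5 on arrays X1 to X4. ACTG2, the gamma actin of visceral smooth muscle, had signals of 405.3, 2023.8, 538.5 and 2890.9 with Y-spermatozoa, against 813.3, 2982.0, 2305.6 and 1766.8 with X-spermatozoa. In both actin genes Y1 was the lowest array, X2 was the highest, and the groups overlapped. The highest array exceeded the lowest 4.38-fold for ACTA2 and 7.36-fold for ACTG2. In limma the log2 difference, Y-spermatozoa minus X-spermatozoa, was -0.62 for ACTA2 (standard error 0.48) and -0.82 for ACTG2 (standard error 0.69), and neither passed. Whether a share of the signal of each actin gene came from the other gene was not tested. A second, dimmer probe set of ACTG2 did not follow this order, with signals of 53.2, 68.9, 54.9 and 67.6 in Y-spermatozoa oviducts and 91.2, 60.8, 83.0 and 61.2 in X-spermatozoa oviducts.

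TAGLN encodes transgelin, an actin-binding protein that is abundant in smooth muscle. Its signals were 198.7, 582.1, 210.7 and 659.8 on arrays Y1 to Y4, and 235.7, 662.5, 660.8 and 300.3 on arrays X1 to X4. CNN1, the calponin that slows the myosin motor on actin, had signals of 68.1, 155.7, 49.2 and 213.4 with Y-spermatozoa, against 76.1, 203.3, 178.9 and 90.5 with X-spermatozoa. For both genes each of the 4 high arrays lay above each of the 4 low arrays, and the groups overlapped over most of their range. The log2 difference was -0.26 for TAGLN (standard error 0.54) and -0.29 for CNN1 (standard error 0.55), each smaller than its standard error. The lowest array of CNN1 was Y3 and its highest was Y4, both with Y-spermatozoa, at a ratio of 4.34.

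DES, the gene of desmin, had signals of 95.7, 245.7, 102.2 and 279.4 with Y-spermatozoa and 132.3, 384.3, 351.6 and 135.9 with X-spermatozoa. It followed the same order of arrays, with group means of 181 ± 95.5 (SD, n = 4) in Y-spermatozoa oviducts and 251 ± 136 (SD, n = 4) in X-spermatozoa oviducts. Its log2 difference of -0.46 was smaller than the standard error of 0.53. The other probe set of DES lay below background on all 8 arrays, at 0.3 to 5.0. Background here is the 95th percentile of 64 reporter probe sets of the same array, 8.39 to 12.5 in signal.

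The tropomyosins, which lie in the groove of the actin filament, differed among their own probe sets. The brightest probe set of TPM2 had signals of 291.1, 1265.8, 395.7 and 1212.5 on arrays Y1 to Y4, and of 475.4, 1581.4, 1363.5 and 579.1 on arrays X1 to X4, a 5.43-fold range with the high and low arrays as before. At -0.48 the log2 difference of this probe set was smaller than its standard error of 0.62. A further TPM2 probe set ran almost in parallel, at 240.3 to 1166.1. The remaining TPM2 probe sets spanned only 49.0 to 92.9 and 9.6 to 20.7, and the dimmer of them did not follow the contractile genes (r = 0.00217 with the mean of the other genes) but was lower with Y-spermatozoa in 4 of 4 sows, as were 6.71% of all probe sets, with a mean signal of 13.6 ± 4.48 with Y-spermatozoa and 18.5 ± 2.74 with X-spermatozoa (SD, n = 4 each). It was below background on 1 array and did not pass in limma, without or with the sow as a block. Its log2 difference was -0.42, with a standard error of 0.235 without the block and 0.165 with it. In limma with the block it came closest of all 17 to passing (unadjusted p = 0.056, adjusted p = 0.895).

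TPM1 is spliced into muscle and non-muscle forms. Its brightest probe set had signals of 2072.2, 2528.9, 1613.3 and 2477.9 with Y-spermatozoa, against 1983.4, 2994.0, 2644.1 and 1788.7 with X-spermatozoa, a range of only 1.86-fold. A second probe set of TPM1 had signals of 304.0, 772.6, 358.0 and 673.5 in Y-spermatozoa oviducts and of 426.5, 938.7, 993.7 and 478.1 in X-spermatozoa oviducts, a range of 3.27-fold. The second one followed the mean of the other contractile genes closely (r = 0.978 over 8 arrays), and the brightest one less so (r = 0.753). The log2 differences of these 2 probe sets were -0.20 (standard error 0.19) and -0.46 (standard error 0.41). The third, at 4.4 to 38.3, was below background on 1 array. In limma without a block it came closest of all 17 to passing, with a log2 difference of -1.08 (standard error 0.55).

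CALD1, the gene of caldesmon, which also makes a form for non-muscle cells, had signals of 354.7, 744.3, 371.1 and 550.0 on arrays Y1 to Y4, and of 457.5, 685.0, 731.3 and 376.6 on arrays X1 to X4. The 4 high arrays were again on top, over a smaller range of 2.10-fold. MYL9, the regulatory light chain of smooth muscle myosin, had signals of 126.3, 164.6, 91.9 and 138.0 with Y-spermatozoa and 111.1, 121.2, 160.7 and 92.5 with X-spermatozoa. MYL9 was the gene whose 4 highest arrays differed from the others, since Y1 lay above X2. The log2 difference was -0.20 for CALD1 (standard error 0.31) and 0.10 for MYL9 (standard error 0.23), so that MYL9 was the one gene of the 9 with a positive sign, which turned to -0.061 without sow 4.

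Between Y-spermatozoa and X-spermatozoa the sows did not share a direction. For ACTA2, ACTG2, TAGLN, CNN1, TPM2 and DES, 6 of the 9 genes, the signal after normalization was lower with Y-spermatozoa in sows 1, 2 and 3 and higher in sow 4, an arrangement found in 5.28% of all probe sets. The difference in sow 3 was the largest of the 4 in each of these genes, from -1.61 in ACTA2 to -2.21 in ACTG2 on the log2 scale. In sow 4 it was 0.32 in ACTA2, 0.57 in ACTG2, 1.11 in TAGLN, 1.24 in CNN1, 1.01 in TPM2 and 1.04 in DES. No gene was lower in 4 of 4 sows by its brightest probe set. Among the 17 probe sets 16 had a negative log2 difference in limma. The median was -0.42 over the 17 probe sets, -0.29 over the 9 genes and 0.00 over all probe sets tested. The probe sets share the same 8 arrays and are not independent of each other. Without sow 3 the differences of TAGLN, CNN1 and CALD1 turned to 0.22, 0.23 and 0.081. Without array Y1 the differences were -0.30 for ACTA2, -0.38 for ACTG2, -0.11 for TPM2, -0.21 for DES and 0.022 for TAGLN. The Y-spermatozoa and X-spermatozoa arrays overlapped for each of the 17 probe sets, while they were separate for 2.07% of all probe sets. Adjusted over all probe sets, limma p-values were 1 for all 17. With the sow as a block none passed an unadjusted p of 0.05 either (5.09% of all probe sets did), and the smallest adjusted p was 0.895. The intervals without a block were wide: the 95% limits were -1.75 and 0.50 for ACTA2, -2.43 and 0.79 for ACTG2, and -1.52 and 1.00 for TAGLN. The sow as a block changed the standard error from 0.48 to 0.34 for ACTA2, from 0.69 to 0.48 for ACTG2 and from 0.54 to 0.48 for TAGLN. It was larger with the block for MYL9 (0.27 against 0.23) and TPM1 (0.21 against 0.19).

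**Figure D2:**
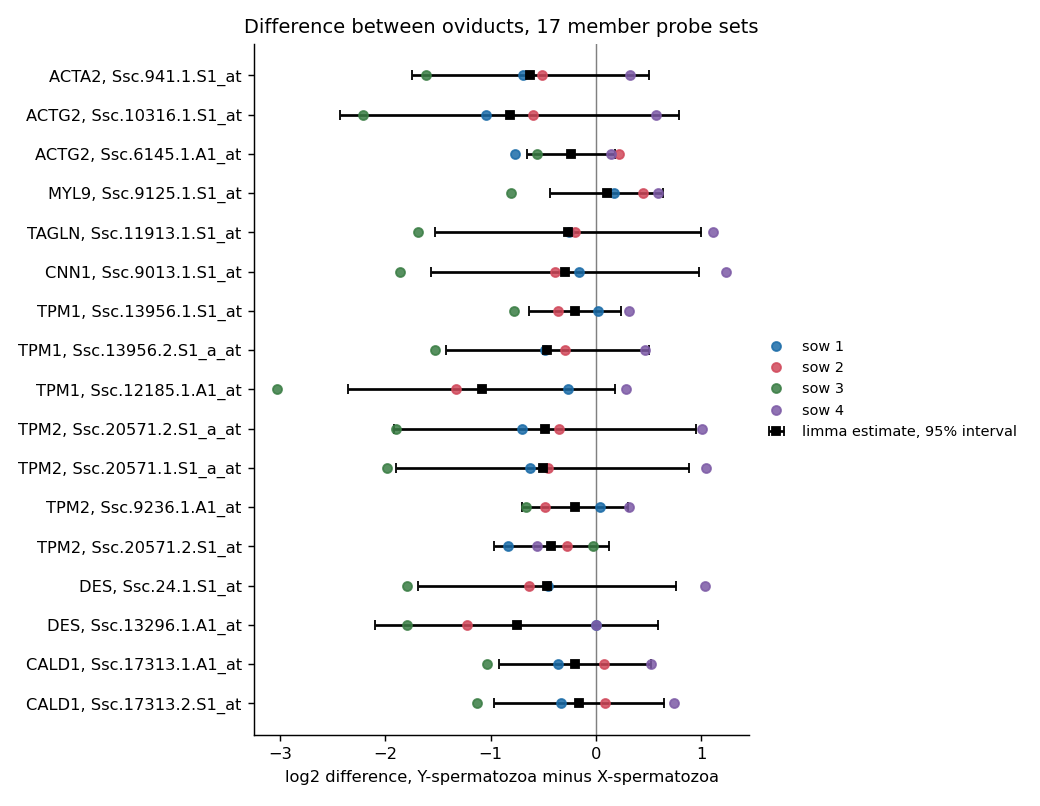
Log2 difference in normalized signal, Y-spermatozoa minus X-spermatozoa (horizontal axis), for the 17 probe sets (rows). Black squares with bars are the limma estimates with 95% intervals, each of which includes 0, and coloured points are the 4 sows; sow 3 lies far to the left and sow 4 to the right of 0 for most genes.

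The genes moved together over the arrays. Pearson's r between the log2 signals of 2 genes, over 8 arrays from 4 sows, ranged from 0.455 to 0.986 over the 36 pairs, with a median of 0.867, and 17 pairs were above 0.9. Over all pairs of the 11999 probe sets brighter than the median probe set, the median r was 0.00 and the 95th percentile 0.691. TPM2 ran with TAGLN and with DES at an r of 0.986, and ACTA2 with ACTG2 at 0.969. The lowest values were those of MYL9 with ACTG2 (0.455) and ACTA2 (0.473), followed by TPM1 with ACTG2 (0.589). After subtraction of the group means the median r was 0.885, so the co-variation did not rest on a difference between Y-spermatozoa and X-spermatozoa arrays. The differences within the 4 sows had a median r of 0.97 over the pairs of genes. All these correlations share the same 8 arrays and carry no test.

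**Figure D3:**
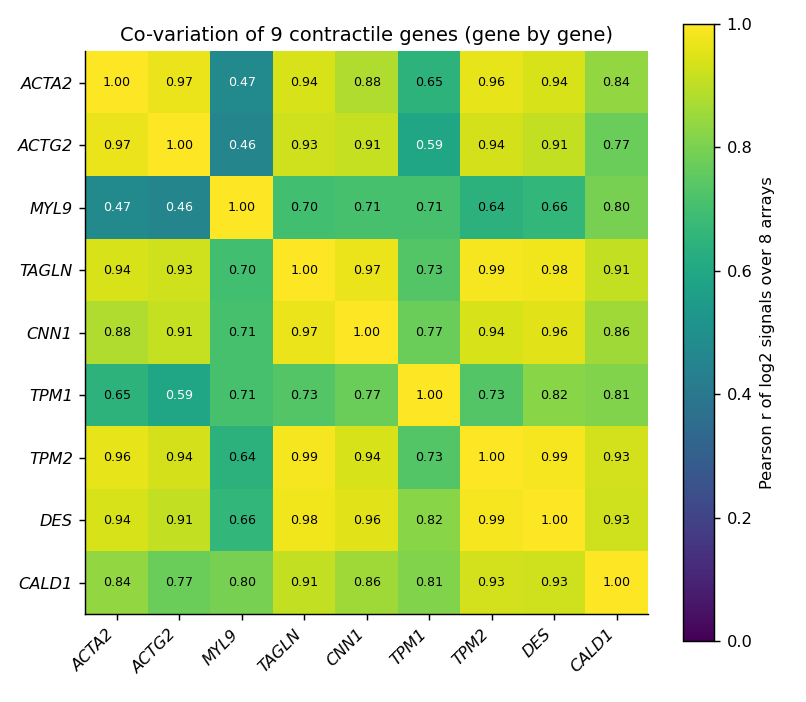
Pearson's r of log2 signals over the 8 arrays for each pair of the 9 contractile genes (both axes), coloured from 0 to 1. ACTA2, ACTG2, TAGLN, CNN1, TPM2 and DES form a block with r of 0.879 to 0.986, while MYL9 and the brightest probe set of TPM1 follow less closely.

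The spread of these genes over arrays was wide for their brightness. The SD of the log2 signal over 8 arrays was 1.10 for ACTG2, 0.94 for TPM2, 0.81 for CNN1, 0.81 for DES, 0.80 for TAGLN, 0.78 for ACTA2, 0.45 for CALD1, 0.32 for MYL9 and 0.27 for TPM1. The median SD was 0.804 over the 9 genes, 0.21 over the 11999 brighter probe sets and 0.316 over all probe sets tested. By SD, 6 of the 9 genes stood above the 95th percentile of the brighter probe sets, and ACTG2 stood at percentile 99.6. MYL9 and TPM1 did not stand out, at percentiles 81.7 and 70.7.

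**Figure D4:**
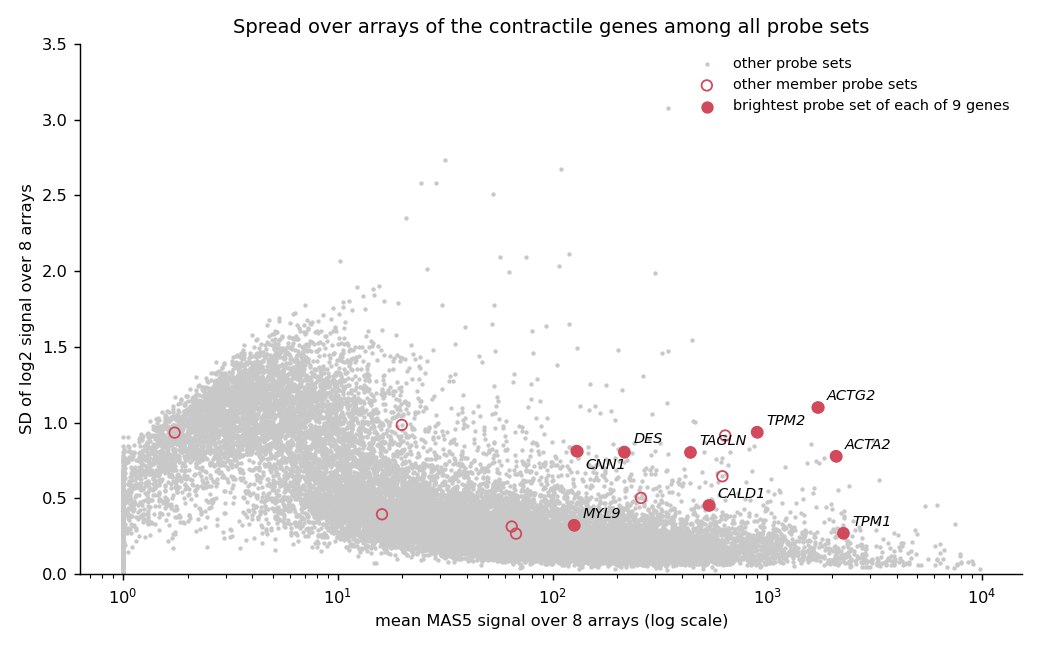
SD of the log2 signal over the 8 arrays (vertical axis) against the mean MAS5 signal (horizontal axis, log scale, means under 1 drawn at 1) for all probe sets tested in grey. Filled red points are the brightest probe set of each of the 9 contractile genes and open red points their other probe sets; ACTG2, TPM2, CNN1, DES, TAGLN and ACTA2 lie between 0.78 and 1.10, above most probe sets of like brightness.

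A mean contractile level was taken as the average of the 9 genes on the log2 scale, each centred on its own mean over the arrays. It was -0.84, 0.42, -0.80 and 0.51 on arrays Y1 to Y4, and -0.46, 0.70, 0.71 and -0.24 on arrays X1 to X4. The group means were -0.18 ± 0.74 (SD, n = 4) with Y-spermatozoa and 0.18 ± 0.62 (SD, n = 4) with X-spermatozoa, so the difference of -0.36 was smaller than the SD within either group. From the lowest array to the highest the level spanned 1.56, a 2.94-fold change. The difference between oviducts was -0.39 in sow 1, -0.28 in sow 2, -1.52 in sow 3 and 0.75 in sow 4. In sow 3 the X-spermatozoa oviduct thus carried 2.86 times the level of the Y-spermatozoa oviduct. In such bulk samples more muscle cells and more contractile RNA per cell cannot be told apart.

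The ratio of the 3′ to the 5′ probe set of GAPDH, a measure of RNA integrity, was 3.83 to 4.26 on the high arrays Y2, Y4, X2 and X3, and 4.13 to 6.0 on the low arrays Y1, Y3, X1 and X4. For beta-actin the ratio was 5.46 to 6.61 on the high arrays and 5.68 to 8.35 on the low arrays. Y1, the lowest array for 6 of the 9 genes, had the highest ratio in both. Without Y1 the mean contractile level spanned 1.52 and the median r between genes was 0.896. The part of RNA integrity in the contractile signal was not tested.

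Other parts of the contraction machinery followed the contractile genes as a mean, but not gene by gene throughout. Of 44 listed genes of the contractile apparatus and its anchorage, 31 had a probe set and 28 lay above background on all arrays. The mean of these 28 genes correlated with the mean contractile level with an r of 0.992 over the 8 arrays, at a smaller range of 0.585 on the log2 scale, and 16 of the 28 had an r above 0.7, as did 6.35% of the brighter probe sets. MYL6, the essential light chain of smooth muscle and non-muscle myosin, had signals of 843.5, 1697.1, 990.7 and 1493.7 with Y-spermatozoa, against 870.7, 1574.7, 1339.6 and 992.7 with X-spermatozoa (r = 0.924). The brightest of 10 probe sets of the non-muscle actin gene ACTG1 did not share the pattern (r = 0.293, signals of 3909.9 to 5085.6). Its SD after normalization was only 0.0635 on the log2 scale. The intermediate filament gene VIM (r = 0.446) did not share the pattern either, nor did SYNM (r = 0.291), PPP1CB (r = 0.466) and CSRP1 (r = 0.52). MYLK followed in part (r = 0.634). ACTB, the beta-actin used as a reference gene in qPCR, followed the pattern (r = 0.84) within 1043.4 to 1443.5. For Y-spermatozoa against X-spermatozoa, 0 of the 31 genes were higher and 1 was lower at an unadjusted p of 0.05 in limma, with a median log2 difference of -0.09. Of all probe sets tested, 1.62% were higher and 1.94% lower at that threshold.

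Of 42 listed genes of smooth muscle transcription and excitation, 25 had a probe set and 20 lay above background on all arrays. Their mean had an r of 0.927 with the mean contractile level, 6 of the 20 had an r above 0.7 and 5 an r below 0. KCNMB1, the accessory subunit of the calcium-activated potassium channel of smooth muscle, had signals of 68.5, 198.8, 83.5 and 187.9 with Y-spermatozoa and 90.8, 266.1, 182.5 and 100.8 with X-spermatozoa (r = 0.966 with the mean contractile level). KCNMB1 was chosen after its values were seen, and its other probe set lay at 4.8 to 21.8. The calcium pump genes ATP2A2 and ATP2B1 and the guanylate cyclase gene GUCY1B3 did not follow (r of 0.513, 0.234 and -0.09), and the transcription factor gene MEF2A followed in part (r = 0.729). For Y-spermatozoa against X-spermatozoa 0 of the 25 were higher and 1 was lower, with a median log2 difference of -0.14. Of all probe sets tested, 1.62% were higher and 1.94% lower. The lower gene was PDE5A, the phosphodiesterase that breaks down cyclic GMP, at 17.8, 19.3, 18.4 and 18.0 with Y-spermatozoa and 24.8, 34.2, 32.3 and 22.1 with X-spermatozoa. The groups of PDE5A did not overlap, as for 2.07% of all probe sets. Its log2 difference was -0.55 (standard error 0.16, adjusted p = 1 in limma). Its other probe set, at 2.1 to 19.2, had a log2 difference of -0.67 and did not pass, and PDE5A too was named after its values were seen.

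Markers of stromal cells followed the contractile genes over the arrays, and those of the epithelium did not. The fibroblast list had 10 of 13 genes measured, with summed signals of 3973 to 8597 with Y-spermatozoa and 4087 to 7192 with X-spermatozoa. Each of its 8 genes above background on all arrays had an r above 0.7 with the mean contractile level, and their mean had an r of 0.88 with it. DCN, the small matrix proteoglycan decorin (r = 0.887), SPARC, a matrix protein of stromal cells (r = 0.763), and FBLN1, the matrix protein fibulin (r = 0.752), were among them, as was LUM (lumican, r = 0.733). The other measured fibroblast genes, COL3A1 and BGN, followed less closely (r of 0.424 and 0.597) and were below background on 1 and 2 arrays. Of the pericyte list 5 of 7 genes were measured, with sums of 1013 to 1706 with Y-spermatozoa and 1060 to 1743 with X-spermatozoa, and the mean had an r of 0.856. The brightest of them, the aminopeptidase gene ANPEP, made up most of these sums at 776.5 to 1418.3 and had an r of only 0.253. PDGFRB, a receptor for platelet-derived growth factor, had an r of 0.903, the adhesion molecule gene MCAM of 0.845, and RGS5, a regulator of G protein signalling that is also on the excitation list, of 0.762. The endothelial list (8 of 9 measured, sums of 246.4 to 487.3 with Y-spermatozoa and 289.3 to 412.3 with X-spermatozoa) followed less closely, with an r of 0.62 for its mean, of 0.839 for the adhesion molecule gene PECAM1, 0.528 for VWF (von Willebrand factor), 0.486 for the cadherin gene CDH5 and 0.367 for the receptor gene TEK. In these 3 lists 0 genes reached an unadjusted limma p under 0.05, but with the sow as a block VWF did, with a log2 difference of 0.48 and higher with Y-spermatozoa in 4 of 4 sows. Of all probe sets tested, 3.56% reached that threshold without the block and 5.09% with it. The part of vessel walls and stroma in the contractile signal was not tested.

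**Figure D5:**
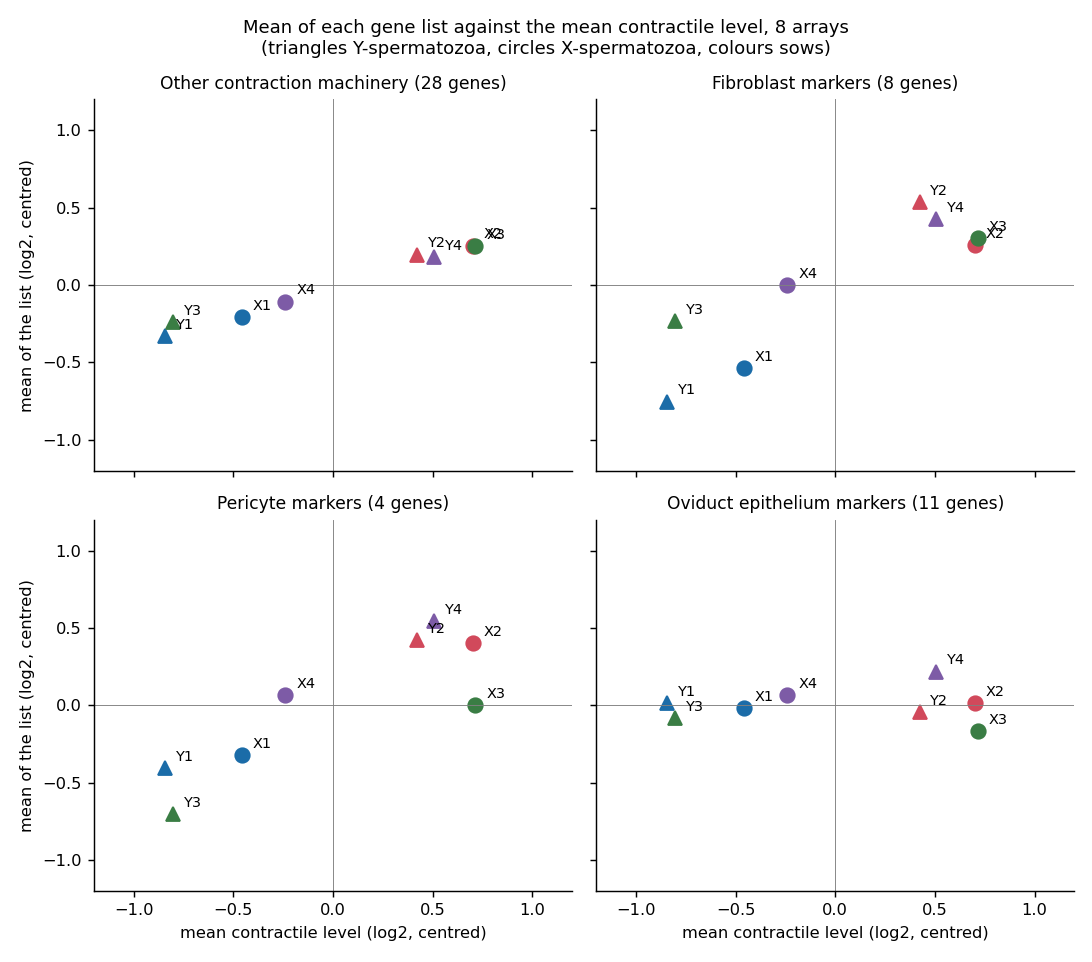
Mean log2 level of 4 gene lists (vertical axes, centred over the 8 arrays, genes above background on all arrays) against the mean contractile level (horizontal axes, log2, centred). Triangles are Y-spermatozoa arrays, circles X-spermatozoa arrays and colours sows; the contraction machinery, fibroblast and pericyte lists climb with the contractile level (r of 0.992, 0.88 and 0.856) and the epithelial list stays flat (r = 0.0545).

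The epithelial markers check the label of the sample. Of 15 genes 11 were measured, all above background on all arrays, with summed signals of 19140 to 20480 with Y-spermatozoa and 16750 to 19240 with X-spermatozoa. OVGP1, the oviduct-specific glycoprotein made by secretory cells, had signals of 7769 to 9315 with Y-spermatozoa and 5841 to 8469 with X-spermatozoa, and EPCAM, an adhesion molecule of epithelia, had 3110 to 3805 with Y-spermatozoa and 2890 to 3319 with X-spermatozoa. These are deposited signals. After normalization the log2 difference was 0.021 for OVGP1 and -0.010 for EPCAM. Of the 11 genes 0 reached an unadjusted limma p under 0.05, which 3.56% of all probe sets reached. The mean of the 11 epithelial genes spanned 0.385 on the log2 scale and had an r of 0.0545 with the mean contractile level. Among the 11 genes the median r was -0.23 and 6 were below 0, with the lowest in ELF3, an epithelial transcription factor (-0.79), and in the claudin gene CLDN4 (-0.61), and the highest in the mucin gene MUC1 (0.567, signals of 43.9 to 210.6). The keratin gene KRT8 had an r of 0.232 and the cadherin gene CDH1 of -0.34. Of the striated muscle markers, 9 of the 14 measured genes had a mean signal below background. Among the 9 were the cardiac actin gene ACTC1, the fast myosin gene MYH2 and the troponin genes TNNI2 and TNNT3. The summed signal of the 14 was 249.3 to 396 with Y-spermatozoa and 255.5 to 462.1 with X-spermatozoa. The mean of the 4 striated muscle genes above background on all arrays had an r of 0.76 with the mean contractile level, and 2 of these 4 had an r above 0.7. The 4 were the myosin gene MYH7 (29.9 to 83.2, r = 0.383), the troponin genes TNNC1 (14.4 to 48.1, r = 0.869) and TNNC2 (83.3 to 216.1), and CKM. CKM, the muscle form of creatine kinase, was measured at 26.8 to 101.7 and followed the contractile genes (r = 0.867), while TNNC2 did not (r = -0.27). The log2 difference of CKM, -0.66, passed the unadjusted threshold in limma only when the sow was a block. With that block 5.09% of all probe sets passed. Of 8 leukocyte genes 6 were measured, with sums of 62.7 to 116.4 with Y-spermatozoa and 70.4 to 82.7 with X-spermatozoa, and PTPRC, CD14, CD79B and CD2 had means below background. The mean of the 2 leukocyte genes above background on all arrays had an r of 0.745 with the mean contractile level. By gene the r was 0.771 for CD163 and -0.006 for CD3E. PTPRC, the leukocyte common antigen, was higher with Y-spermatozoa at the unadjusted threshold of 0.05 in limma, but below background on 6 arrays. Of the erythrocyte genes HBB and ALAS2 were measured, with sums of 205.8 to 237.6 with Y-spermatozoa and 206.2 to 254.4 with X-spermatozoa. ALAS2, below background on 1 array, had a log2 difference of 0.44. It reached that threshold only with the sow as a block, as did 5.09% of all probe sets.

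The named genes most like the mean contractile level were sought among 5925 probe sets with 1 gene symbol, brighter than the median probe set and outside the 10 genes, the genes of the lists included. Over the 8 arrays the closest was PDLIM7, a scaffold protein at actin filaments, with an r of 0.985 and signals of 18.8, 55.9, 20.2 and 62.3 with Y-spermatozoa, against 25.4, 59.1, 64.7 and 37.0 with X-spermatozoa. GYG1, the glycogenin that primes glycogen synthesis, came next (r = 0.983, signals of 126.8 to 397.9), followed by MSN, the moesin that links actin to the plasma membrane (r = 0.979). FKBP9, a prolyl isomerase of the endoplasmic reticulum (r = 0.978), the unnamed loci LOC100514494 (r = 0.976) and LOC100514340 (r = 0.973), CFL2, the cofilin of muscle (r = 0.972), TACC1 (r = 0.969), the zinc finger gene ZNF771 (r = 0.969) and VCL, the vinculin of adhesion plaques (r = 0.967), completed the first 10. PDLIM7 and VCL are also on the list of contraction machinery. Their ranges differed, at 3.42-fold for CFL2, 1.63-fold for VCL and 1.34-fold for FKBP9. The 5 most opposed were UBE4A, a ubiquitin ligase (r = -0.94), KCNE3, a potassium channel subunit of epithelia (r = -0.94), RAB19 (r = -0.93), MARVELD3, a tight junction protein (r = -0.93), and TNFAIP8L2 (r = -0.92). They spanned 1.30-fold to 2.01-fold. Between Y-spermatozoa and X-spermatozoa 0 of these 15 genes reached an unadjusted limma p under 0.05, which 3.56% of all probe sets reached. Of the 11999 brighter probe sets 101 (0.842%) had an r above 0.9 with the mean contractile level and 20 (0.167%) had an r below -0.9. The first principal component of all probe sets, with 20.2% of the variance, had an r of 0.835 in size with the mean contractile level, and the second, with 16.3%, of 0.105.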

How the data were processed

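RNA of 8 oviducts was hybridised to 1 Affymetrix Porcine array each. The authors deposited intensities on a linear scale, a single signal for every probe set, computed with Microarray Suite (MAS5 5.1 in the submitters' processing notes). The medians of the arrays lay at 38.7 to 41.2, and how the arrays were scaled is not given in the sources used here. The study's own analysis used RMA values, which were not used here. Signals were quantile normalized over 24123 probe sets, raised to a floor of 1 and put on the log2 scale. Quantile normalization makes the arrays' distributions equal, so a change shared by most transcripts cannot be seen. The 124 AFFX controls were then left out, and the other 23999 probe sets were tested with limma (version 3.58.1 in R 4.3.3; lmFit and eBayes, Y-spermatozoa minus X-spermatozoa, two-sided, Benjamini-Hochberg adjustment), without a block, since the study's methods name limma tests between the groups and state no pairing for them. The number of arrays limits the precision. Python 3.11.15 served for the summaries and matplotlib 3.10.9 for the figures. The fit was tested on simulated data.

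Both oviducts of a sow carry its number, by the labels and the study's design, so the arrays are paired. After removal of the group means, arrays of the same sow had an r of 0.132 to 0.187 over all probe sets. Symbols come from the platform annotation, in which 10099 probe sets have 1 symbol, 198 several and 13826 none; all 17 probe sets of the contractile genes matched by gene ID the pig gene table of Sscrofa11.1, which was used for names alone. The brightest probe set stands for a gene. Names were taken from the brightest genes of each list, up to 4, and from likeness to the mean contractile level; other names were chosen after their values were seen. The members and lists were chosen with earlier results of these data known. Alternatives were the sow as a block or random block, median centring, the deposited scaling, a pseudocount of 16, the brighter probe sets alone, eBayes with trend, array weights, the hybridisation controls as a covariate, other averages of the genes, and each array or sow left out. The qPCR and sperm measurements were not analysed here. The gene of the contraction machinery list that was lower with Y-spermatozoa is not reported here.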

Additional observations from a re-analysis of the deposited data

Results flagged for a closer look

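Each group of 4 arrays was searched for a single array that stood apart from the other 3, for the 17 probe sets and the mean contractile level, 36 tests in all, of which chance gives about 1 in 20. A pair of them were met. TPM1, by its brightest probe set, had a signal of 1613.3 on array Y3, against 2072.2 to 2528.9 on the other Y-spermatozoa arrays, and on the log2 scale after quantile normalization this gap made up 0.873 of the range of the group. On the deposited signals the gap is a smaller share of the range and would not have stood out. The dim probe set of DES had 1.8 on array Y2 and 0.8 to 0.9 on the other Y-spermatozoa arrays, where the gap was 1 of the range because values under 1 were set to 1. All values of this DES probe set lay below background.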

How the results depend on the processing

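No alternative called the brightest probe set of any of the 9 genes. With the sow as a replicate block 1222 probe sets of all passed an unadjusted p of 0.05 in place of 855, and none of the 17 did. The count over all was 1459 with the sow as a random block, 311 among the brighter probe sets alone, where fewer were tested, and 1101 with the mean contractile level as a covariate, chosen after seeing the data. When the hybridisation controls entered as covariate, the log2 difference turned positive for TAGLN (0.26), CNN1 (0.082), TPM2 (0.23) and CALD1 (0.29). Leaving out 1 array or sow, the count among the 17 ranged from 0 to 1. A dim TPM2 probe set (log2 difference -0.60) passed without Y3, where 911 of the 23999 probe sets tested passed. A dim TPM1 probe set passed without Y4 (-1.51), where 945 of all passed, and without sow 4 (-1.54), where 773 of all passed. The log2 difference then ranged from -0.061 to 0.40 for MYL9, from -0.72 to 0.22 for TAGLN, from -0.80 to 0.23 for CNN1 and from -0.44 to 0.081 for CALD1. Negative throughout were ACTA2 (-0.94 to -0.29), ACTG2 (-1.28 to -0.36), TPM1 (-0.37 to -0.0076), TPM2 (-0.98 to -0.013) and DES (-0.96 to -0.018). The difference in mean contractile level ranged from -0.73 without sow 4 to 0.03 without sow 3. The cause was not tested. Signals near background limit the dim probe sets.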

Other observations

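HOXA9, a homeobox gene that marks positions along the body axis and in the female tract, had signals of 5.3, 114.4, 13.4 and 156.6 with Y-spermatozoa and of 23.0, 346.4, 178.5 and 121.0 with X-spermatozoa, and followed the mean contractile level with an r of 0.924. Array Y1 was below background for HOXA9. ITGA8, the integrin alpha 8 subunit of mesenchymal and smooth muscle cells, had signals of 14.2, 56.3, 24.8 and 62.8 with Y-spermatozoa and 26.0, 74.0, 80.4 and 50.9 with X-spermatozoa, and its 3 probe sets had an r of 0.937 to 0.963. C1QTNF3, a secreted protein related to complement C1q (r = 0.941, signals of 22.9 to 130.6), and LGALS1, the lectin galectin 1 (r = 0.917, signals of 511.4 to 1812.0), followed as well. The choice of these 4 followed a look at their values, and 0 of them reached an unadjusted limma p under 0.05 for Y-spermatozoa against X-spermatozoa. Of all probe sets tested, 3.56% reached it.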
